A study of Mus musculus with 14 samples.

Results

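Mature dendritic cells marked by Ccr7 and Fscn1 made up 113 of 555 cells sorted one by one from mouse tumours under the label cDC1, the type 1 conventional dendritic cell. A UMI is a tag meant to count each transcript once. A cell was called mature when it held at least 1 UMI of at least 5 of 10 genes. These were Ccr7, Fscn1, Ccl22, Relb, Cd40, Socs2, Cacnb3, Il4i1, Samsn1 and Anxa3. The other 442 cells of the plates served for comparison. Because the counts themselves chose the cells, differences in transcripts between mature and other cells are given as a description, with no test, while protein stainings, shares of cells and genotype comparisons were tested.

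The tumours were YUMM1.7, a mouse melanoma line, grown under the skin of the right flank of female mice. Each of the 14 plates of 96 wells held cells of 1 tumour of 1 mouse, and the plate was the replicate. The groups were Irf1_FF (4 plates, mice of 6 weeks, named Irf1 control here), Irf1_dXCR1 (5 plates, 6 weeks, Irf1-deleted), Ikbkb_FF (1 plate, 8 weeks, Ikbkb control) and Ikbkb_dXCR1 (4 plates, 2 at 8 weeks and 2 at 6 weeks, Ikbkb-deleted). The words control and deleted rest on these genotype names, which the labels do not spell out. The sources used here name neither the exons removed nor the allele that drives deletion, so transcript levels of Irf1 and Ikbkb do not check the labels. All Irf1 plates came from one experiment and all Ikbkb plates from another. The series title concerns an axis of NF-κB and IRF1 in cDC1, and the genotype comparisons ask what loss of Irf1, a transcription factor of interferon responses, or of Ikbkb, the kinase that releases NF-κB, did to the cells.

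Dendritic cells mature after they take up antigen or meet danger signals. They then lose uptake functions, express CCR7, the receptor that guides them along lymphatic chemokines to the draining node, and display costimulatory molecules and cytokines to T cells. In tumours such cells are known to carry both stimulatory genes such as Il12b and inhibitory ones such as Cd274, which encodes PD-L1.

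Plates held 18 to 59 cells and 2810321 to 10120557 UMIs. The median mature cell held 135355 UMIs and 1385 genes, against 146849 UMIs and 1686 genes in other cells. Spike-in RNA took 4.47% of UMIs in the median mature cell and 4.11% in the median other cell, and mitochondrial transcripts 1.1% and 1.17%. Of the 442 other cells, 238 had at least 4 of 8 cDC1 markers, and these cDC1-marked cells were used as a narrower comparison. The rest included cells outside the labelled type: 91 other cells carried at least 3 of 10 macrophage or monocyte markers and 65 at least 3 of 6 fibroblast or endothelial markers. Among mature cells 5 of 113 reached 3 macrophage markers, 5 of 113 reached 3 fibroblast or endothelial markers and 0 reached 3 T cell markers. Of 5 natural killer markers Ncr1, Klrb1c, Prf1 and Gzma were at 0 in all mature cells. The remaining one had UMIs in mature cells of the Ikbkb control plate. Of the T cell markers Cd3e, Cd3g and Cd4 were at 0, but Cd3d had a UMI in 2 mature cells and Trac in 1. Of 5 melanoma markers only Mlana and Pmel were among the counted genes, and both were at 0 in all mature cells. The 94 well barcodes are reused on every plate by design, and no cell shared all its counts with another.

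The labelled type was only partly visible in the mature cells themselves: 20 of the 113 held at least 3 of the 8 cDC1 markers, against 268 of the 442 other cells. Xcr1, the chemokine receptor that defines cDC1, had a UMI in 7 mature cells and Naaa, an acid amidase typical of cDC1, in 10. All 7 and all 10 also held Ccr7. The mature markers themselves were present as chosen. Ccr7 (GRCm38, chr11:99144196-99155077, minus strand) had a UMI in 97.35% of mature and 13.57% of other cells. Samsn1, a signalling adaptor, had a UMI in 96.46% against 11.76%, and Ccl22, a chemokine that attracts CCR4-bearing T cells, in 85.84% against 9.502%. Fscn1 (chr5:142960343-142973185, plus strand), which encodes the actin-bundling protein fascin, had a UMI in 79.65% against 9.955%. Cd40, the receptor for T cell help, was the least separating of the common markers, at 84.07% against 25.57%. Il4i1, an amino acid oxidase, was found in 1 mature cell only, so in practice 9 genes chose the cells.

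Near the threshold the cells changed gradually. Of the 17 cells with exactly 5 markers 52.94% held Il12b and 5.882% Naaa, while of the 13 cells with 4 markers, just outside, 38.46% held Il12b and 23.08% Naaa. Cells with 9 markers, 27 in number, held Il12b in 74.07% and Stat4 in 96.3%. The median number of genes was 908 in cells with 5 markers and 1770 in cells with 9, while cells with 1, 2 or 3 markers held 1887, 1835 and 1951. The part of depth in these shares was not tested.

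The share of mature cells ran from 4.651% to 29.41% over plates. Irf1 control plates held 2 of 43, 11 of 40, 9 of 31 and 12 of 51 mature cells. Plate 1 of this group, at 4.651% (exact 95% interval 0.5683 to 15.81%, counting error only), stood below the other plates of the group, at 27.5%, 29.03% and 23.53%. Irf1-deleted plates held 20.34%, 10.81%, 24.14%, 22.45% and 24.49%. The groups overlapped: 21.18 ± 11.26% (SD, n = 4) in Irf1 control and 20.45 ± 5.632% (n = 5) in Irf1-deleted plates, a difference of -0.7318 percentage points (exact permutation test, two-sided, p = 0.857, smallest possible p 0.0159). With each cell thinned to 20000 UMIs the shares were 21.09% and 20.12% (exact permutation p = 0.841). The Ikbkb control plate held 4 of 34 mature cells, or 11.76%, and the Ikbkb-deleted plates 16.67%, 7.692%, 23.68% and 29.41%, with no test because 1 plate has no spread. Cells were sorted, so the gate can set these shares.

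**Figure D1:**
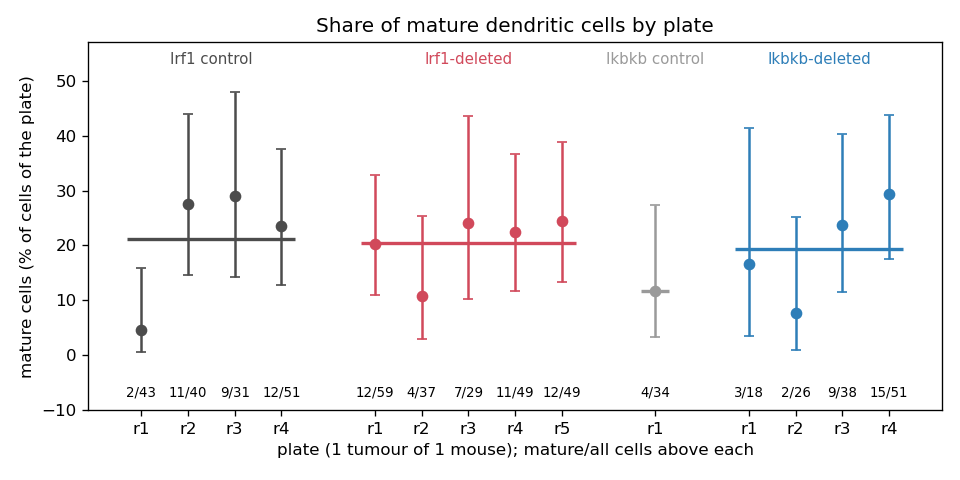
Share of mature cells (y, percent of the cells of a plate) for each of the 14 plates (x), grouped by genotype, with exact 95% intervals and the group mean as a line. Most plates sit between 20% and 30%, and plate 1 of the Irf1 control lies lowest at 4.651%.

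Stainings recorded during the sort gave a view of the same cells that the 10 marker genes did not use. The gate of the sort can limit the range of stainings such as XCR1 in both states. Its part in the staining differences was not tested. Records existed for 458 cells, 93 of them mature, and 10 plates had at least 3 mature cells with one. MHCII protein, the molecule that presents antigen to CD4 T cells, was stained more brightly in mature cells in 9 of 10 plates. The plate medians, on an arcsinh scale, were 10.21 ± 0.985 (SD, n = 10 plates) in mature and 8.873 ± 0.6594 in other cells, a difference of 1.334 ± 0.9855. The exception was plate 4 of the Irf1 control, at 9.491 against 10.17. By an exact sign-flip permutation test over plates the two-sided p was 0.00586, and 0.0645 after adjustment over the 11 recorded measures, so the difference missed the threshold of 0.05 over the whole panel. Against cDC1-marked cells alone, an added comparison, mature cells were brighter by 1.134 in 8 of 10 plates (exact permutation p = 0.0117, adjusted p = 0.0234 over 4 added comparisons).

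XCR1 protein differed between mature and other cells by less than the spread between plates, at 8.34 ± 0.8199 and 8.05 ± 0.746, a difference of 0.2894 ± 0.8175 that was higher in 7 of 10 plates (exact permutation p = 0.336, adjusted p = 0.655). Against cDC1-marked cells the difference was -0.1813 (exact permutation p = 0.535), and against the remaining cells 0.6008 (exact permutation p = 0.0391, adjusted p = 0.0521). The transcript stood otherwise: Xcr1 was at 34.74 CPM, the UMIs of a gene per 1000000 UMIs of a plate's summed cells, in mature cells and 275.3 CPM in other cells, and it was lower in mature cells in all 9 plates compared. The stainings of CD11c, CD11b, CD45, CD64, LIN, LIVE and B_TIL and the scatter measures FSC and SSC had adjusted p values from 0.587 to 0.979 over the same panel.

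**Figure D2:**
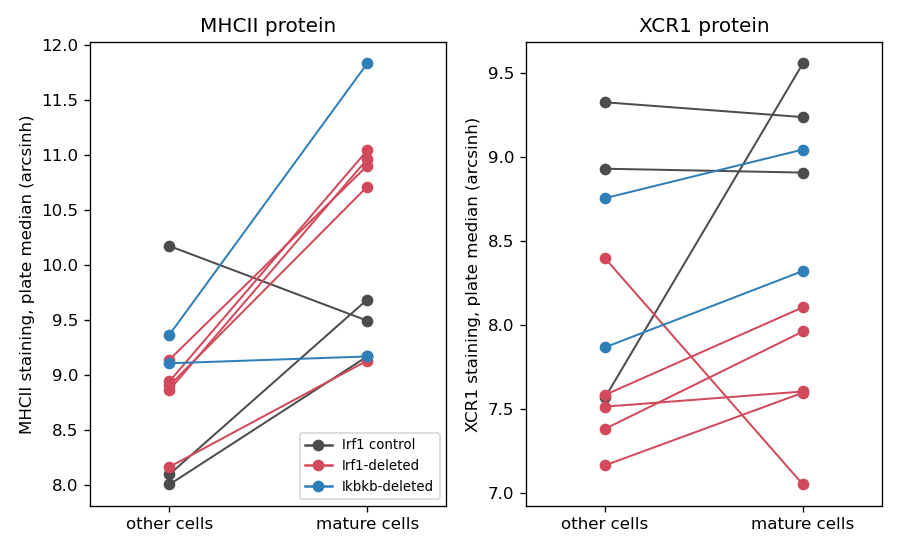
Plate medians of MHCII and XCR1 staining (y, arcsinh scale) in other and mature cells (x), with 1 line per plate coloured by genotype. MHCII lines go up in 9 of 10 plates, and XCR1 lines go up in 7 and down in 3.

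For transcripts, counts were summed over the mature and over the other cells of each plate with at least 5 mature cells. These were 9 plates: 3 Irf1 control (2 to 4), 4 Irf1-deleted (1, 3, 4 and 5) and 2 Ikbkb-deleted (3 and 4). In such sums fewer cells with a transcript and less of it per cell cannot be told apart, so shares of cells are given for the genes of most weight. A gene was called when its log2 (CPM + 10) differed in the same direction in all 9 plates with a median difference beyond 1. Of 19656 genes 233 (1.19%) were higher in mature cells and 535 (2.72%) lower. Against cDC1-marked cells alone 253 of 17041 genes (1.48%) were higher and 392 (2.3%) lower. As the cells were chosen on the same counts, these numbers carry no test. Markers of the rule were not taken out of the gene lists below. Where a list holds them, the choice of cells can raise its count of higher genes and its median.

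Migration and cytoskeleton genes stood higher as a group: 9 of 18 were called higher and 0 lower, with a median difference of 1.63, against 0 for all genes. Ccr7, a marker of the rule, had a lowest, median and highest plate level of 2841, 3793 and 4887 CPM in mature cells and a mean of 92.26 CPM in other cells. Fscn1 ran from 318.1 over 565 to 1278 CPM, against 23.87 CPM. Both genes helped to choose the cells, so their separation between the states is not a result of its own. Beyond the markers, Swap70, which links phosphoinositide signals to actin, was at 865.8 against 86.28 CPM, Marcksl1, an actin-linked membrane protein, at 435.2 against 48.23 CPM and Tbc1d4, a regulator of vesicle traffic, at 806.4 against 118.4 CPM. Cxcr5, the receptor that guides cells to B cell follicles, was at 88.93 CPM in mature cells and had no UMI in other cells of these plates, but was found in only 7 of 9 mature sums.

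Costimulatory and checkpoint ligands were also higher, with 7 of 18 called higher, 2 lower and a median of 1.78. Tnfrsf4, which encodes OX40, was the gene with the largest difference of this list, at 619.7, 1162 and 1483 CPM (lowest, median, highest) in mature plates against a mean of 19.97 CPM (0 to 80.72) in other cells. Cd200, an inhibitory ligand for myeloid cells, was at 532.5, 790.5 and 1157 CPM against 45.25 CPM. Both gene products act at the contact with other immune cells, and neither gene overlapped between the states in any plate. Cd70, the ligand of CD27 on T cells, was higher in 8 of 9 plates, at 421.4 against 6.171 CPM, with 0 CPM in the lowest mature plate.

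Stimulatory and inhibitory B7 ligands were both found in mature cells. Cd80 was at 273.3 CPM in mature and 36.89 CPM in other cells, Cd86 at 1264 and 615.6 CPM, Cd274 at 694 and 158.7 CPM, and Pdcd1lg2, which encodes PD-L2, at 465.4 and 67.83 CPM. Cd86 was higher in 8 of 9 plates and did not meet the rule for a call. Of the 113 mature cells 84 held Cd86 and 53 Cd80, with 49 holding both. Cd274 was found in 74 and Pdcd1lg2 in 51, with 40 holding both and 28 neither. Havcr2, which encodes the inhibitory receptor TIM-3 and is typical of tumour cDC1, went the other way, at 21.82 CPM in mature and 308.2 CPM in other cells.

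Chemokines and cytokines were divided, with 4 of 24 higher, 2 lower and a median of 0. Il12b, the p40 subunit of interleukin 12, had the largest median difference of the genes called higher with at least 100 CPM, 6.92 on the log2 scale. Its mature plates ran from 1008 over 2347 to 5104 CPM and its other-cell plates from 0 to 192 CPM. Ccl5, which attracts T cells, ran from 326.6 over 1982 to 4372 CPM against 0 to 688.2 CPM, a median difference of 3.69. It was higher within each plate, though the ranges over plates overlapped. Neither gene was used to choose the cells. In mature cells Il12b was found in 72 and Ccl5 in 78 of 113, both in 51 and neither in 14. Ccl22, a marker, was in 97 cells, and Ccl17, its neighbour in function, in 24, of which 23 held Ccl22. Ccl4 was lower at 78.55 against 517.4 CPM, and so was Il18, an inflammasome cytokine, at 6.726 against 149 CPM.

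Components and feedback inhibitors of NF-κB stood higher as a set, with 11 of 28 called higher, 0 lower and a median of 1.32. They covered the alternative pathway, whose kinase NIK is encoded by Map3k14 and held down by TRAF3 and cIAP1. Map3k14 was at 318.3 CPM in mature and 42.41 CPM in other cells, Traf3 at 112.4 and 14.84 CPM, and Birc2, which encodes cIAP1, at 412.4 and 50.1 CPM. Relb, a marker, was at 378.4 and 37.53 CPM, and its partner Nfkb2 at 434.1 and 95.66 CPM. Nfkbia, the inhibitor that NF-κB itself induces, was at 2235 and 864.3 CPM. Ikbkb (GRCm38, chr8:22659212-22706589, minus strand) was at 556.3 and 216.6 CPM and higher in 8 of 9 plates.

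Promoters, taken as the 250 bases before the gene start in RefSeq (build GRCm38.p6), were searched on both strands for the NF-kB element GGGNNTTTCC. It occurred in 1.41% of the 32851 promoters of the table, and in 1.71% of the 11274 genes that had a UMI in these sums and a promoter there. Of the 233 genes called higher 177 had a promoter, and 9 of them (5.08%) held the element, as did 4 of 423 (0.946%) of those called lower and 6 of 24 (25.0%) of the NF-κB list. A broader form, GGGNNNNNCC, which contains every match of the first, occurred in 45.8% of promoters and so separates little. The promoters of Nfkbia and Traf3 are shown because both genes belong to the NF-κB list, were called higher and hold the element outside annotated exons. Gm10851, Anxa4, Tuba1c and Rab9 were also called higher and hold it outside annotated exons, but are not shown. Capitals mark it, at bases -29 to -20 on the minus strand relative to the gene for Nfkbia (chr12:55492648-55492897, minus strand) and at bases -10 to -1 for Traf3 (chr12:111166120-111166369, plus strand), where -1 is the base before the start. A match describes letters, not binding.
Nfkbia: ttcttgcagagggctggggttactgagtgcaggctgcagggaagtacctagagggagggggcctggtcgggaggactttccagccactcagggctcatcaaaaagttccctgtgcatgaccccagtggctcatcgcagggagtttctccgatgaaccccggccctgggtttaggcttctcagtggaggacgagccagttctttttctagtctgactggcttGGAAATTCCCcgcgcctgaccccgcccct
Traf3: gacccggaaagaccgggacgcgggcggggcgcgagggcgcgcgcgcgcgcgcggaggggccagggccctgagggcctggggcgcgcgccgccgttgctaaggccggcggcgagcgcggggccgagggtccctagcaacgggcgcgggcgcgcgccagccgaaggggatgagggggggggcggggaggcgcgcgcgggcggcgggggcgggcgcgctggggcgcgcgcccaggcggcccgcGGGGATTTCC

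Regulatory genes were higher in 3 of 16 cases and lower in 0, with a median of 0.875. Fas, the death receptor, was at 314.8 CPM in mature and 38.67 CPM in other cells. Arg2, an arginase of mitochondria, was at 93.19 and 5.22 CPM and higher in 8 of 9 plates. Among apoptosis and survival genes 4 of 20 were called higher and 0 lower (median 0.919), among them Birc2 and the survival genes Bcl2a1b and Bcl2a1d, a pair of near-identical copies whose reads may be split. Bcl2l14 was at 674.2 against 80.87 CPM and Bcl2l1, which encodes the survival protein BCL-XL, at 251.5 against 37.03 CPM, each higher in 8 of 9 plates.

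Some of the largest differences lay outside the lists. Stat4, which carries the signal of the interleukin 12 receptor, was at 702.8, 1051 and 1228 CPM in mature plates against 0.2875 to 84.56 CPM in other-cell plates. Nudt17, a hydrolase of the Nudix family, was at 1298 against 18.29 CPM. Scin, an actin-severing protein, was at 671.9 against 23.21 CPM, and Ramp3, which alters the ligand choice of calcitonin-family receptors, at 1345 against 54.38 CPM. Gm13546, an antisense transcript, was at 536.6 against 6.542 CPM. Counting by strand is not stated for it in the sources used here, so reads of its overlapping partner cannot be told apart.

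Genes of cDC1 identity were lower, with 12 of 20 called lower, 0 higher and a median of -2.27. Against cDC1-marked cells 15 of 20 were lower and the median was -3.26. Naaa was at 0, 0.7822 and 390.7 CPM (lowest, median, highest) in mature plates and 872 to 1701 CPM in other-cell plates, with a median difference of -7.02. Rab7b, a GTPase of late endosomes, was at 42.07 against 907 CPM. Tlr3, the receptor for double-stranded RNA, was at 0.04508 against 203.1 CPM, and Clec9a, the receptor for exposed actin of dead cells, at 25.66 against 106.7 CPM. Itgae, which encodes CD103, was at 39.47 against 202.4 CPM. The transcription factors that maintain the lineage were not called: Irf8 was at 1094 CPM in mature and 1033 CPM in other cells and Batf3 at 428.5 and 344.9 CPM, with the states overlapping for both. Of cDC2 genes 0 of 10 were called in either direction (median -0.108).

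Of 15 uptake receptors 2 were called lower, the scavenger receptor Cd36 at 12.69 against 171 CPM and the inhibitory receptor Fcgr2b at 55.78 against 507.7 CPM, while Ly75, which encodes DEC-205, was called higher at 196.8, 597.5 and 1138 CPM in mature plates against 66.61 CPM. Macrophages also express Cd36 and Fcgr2b, and macrophage markers were summed to 14.88 to 2240 CPM in mature and 605.3 to 5544 CPM in other cells. Their part in the uptake list was not tested. The pattern recognition list had 0 of 21 called in either direction (median -0.546), but Tlr3 and Tlr11, which were listed under cDC1 identity, were both called lower.

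Of 13 MHC class II genes 4 were lower and 0 higher (median -0.73). Among those called, March1, the ligase that sends surface MHCII to degradation, was at 11.53 against 291 CPM, and H2-DMb1, a subunit of the peptide-loading factor, at 205.8 against 1470 CPM. H2-Eb2, a class II beta chain, lay the other way, at 102.2 against 1.156 CPM and higher in 7 of 9 plates, without a call. Ciita, the master activator of the genes, was at 71.01 against 259.8 CPM and lower in 8 of 9 plates. H2-Aa, one chain of the presenting molecule, was at 4209 and 3692 CPM with the states overlapping. The MHC class I list had 2 of 23 higher and 1 lower (median 0.219), with Psme2, a proteasome activator, at 3585 against 1453 CPM and H2-Q6 at 523.6 against 202.6 CPM.

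Interferon-linked genes did not share one direction. Of the 38 genes of the interferon-gamma response and IRF1 targets 3 were higher and 3 lower (median -0.248). Irf1 itself (GRCm38, chr11:53770014-53778374, plus strand) was called higher, at 335.8, 735.5 and 899.3 CPM in mature plates against a mean of 184.6 CPM in other cells, and had a UMI in 63.72% of mature and 23.3% of other cells. Type I interferon-stimulated genes were lower, with 6 of 37 called lower, 0 higher and a median of -1.02, for example Ifit3 at 101.9 against 435.8 CPM. Against cDC1-marked cells 2 of 37 were lower, with a median of -0.576.

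Cell cycle genes were lower as well. Of 28 S phase genes 5 were called lower (median -1.55) and of 28 genes that act in G2 and mitosis 3 (median -2.05), with 0 higher in both. Mcm2, a replicative helicase subunit, was at 1.044 against 112.1 CPM, and Ube2c, which drives exit from mitosis, had no UMI in the mature cells of these plates and was at 102.2 CPM in other cells. Genes that tissue digestion is known to induce were lower in 4 of 18 cases, with Fos at 60.12 against 830.2 CPM and Hspa1a at 44.54 against 197.7 CPM. Both states went through the same digestion, and the part of dissociation in these differences was not tested. Of 23 cholesterol genes 0 were called, and of 20 glycolysis genes 1, Ldha, was lower at 385.5 against 1004 CPM.

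**Figure D3:**
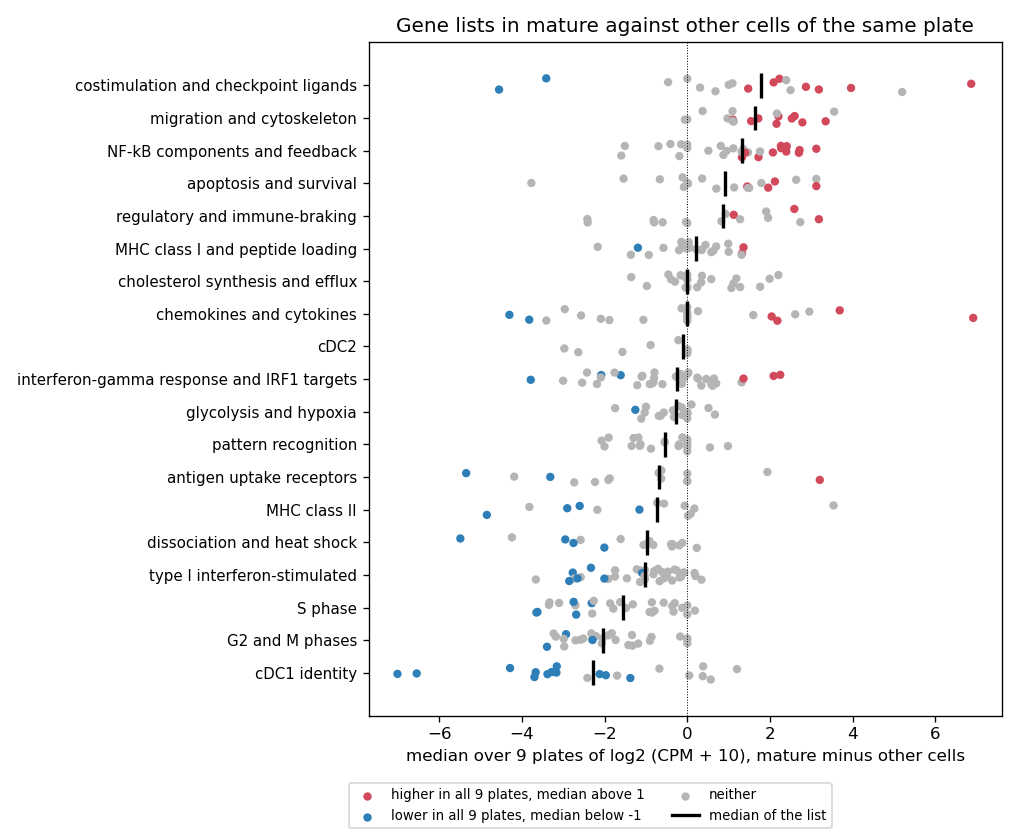
Members of 19 gene lists by their median difference over 9 plates in log2 (CPM + 10), mature minus other cells (x), sorted by the list median (black bar), with called genes in colour. Costimulation, migration and NF-κB lists have medians above 1, and cDC1 identity and cell cycle lists have the lowest medians. Markers of the rule were not taken out of the lists.

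To ask whether Irf1 or Ikbkb deletion changed the mature cells themselves, their plate sums were compared between genotypes with edgeR's quasi-likelihood test over 7311 genes. The 3 Irf1 control plates served both comparisons, since the Ikbkb control plate held only 4 mature cells. Results of both comparisons therefore share their controls, and for Ikbkb the genotype and the experiment cannot be told apart. With Irf1 deletion 0 genes (0.0%) passed an adjusted p of 0.05 in edgeR, with 409 at an unadjusted p under 0.05, the smallest adjusted p being 0.165, while DESeq2 called 15 and limma-trend 11. With Ikbkb deletion edgeR called 0 genes (0.0%), with 307 at an unadjusted p under 0.05, and DESeq2 called 177. The levels of single genes between genotypes are therefore given with their size and error, as differences that did not pass edgeR's test. Beside them stands whether the plates of the groups overlapped: of the 7311 genes, 169 (2.31%) were lower in each of the 4 Irf1-deleted plates than in any of the 3 control plates, and 253 (3.46%) were higher. Both Ikbkb-deleted plates lay below the control plates for 421 genes (5.76%) and above them for 671 (9.18%). Fold changes are edgeR's, after TMM scaling, and levels are plain CPM.

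Transcripts of the deleted genes overlapped between genotypes. Irf1 was at 871.2, 796.5 and 899.3 CPM in the control plates and at 735.5, 851, 335.8 and 435.3 CPM in Irf1-deleted plates (log2 fold change -0.60 ± 0.38 SE, edgeR adjusted p = 0.652). It had a UMI in 84.38% of control and 52.38% of Irf1-deleted mature cells. In Ikbkb-deleted plates Irf1 was at 574.6 and 442.3 CPM, below every control plate. Ikbkb was at 612.9, 256.1 and 327.1 CPM in control and 494.1 and 743.1 CPM in Ikbkb-deleted plates (log2 fold change 0.67 ± 0.51 SE, edgeR adjusted p = 0.705). Reads tag the start of transcripts, so a transcript that starts upstream of a deleted exon would still be counted.

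Of the 9 marker genes tested, 7 overlapped between Irf1 control and Irf1-deleted plates and 5 between control and Ikbkb-deleted plates. Relb was higher, and Anxa3 lower, in each Irf1-deleted plate than in any control plate, and in both Ikbkb-deleted plates Fscn1, Ccl22 and Anxa3 were lower and Samsn1 higher. None passed edgeR's test, with 2 and 1 at an unadjusted p under 0.05. Ccr7 was at 2922, 3339 and 4623 CPM in control, 3793, 3912, 4210 and 2841 CPM in Irf1-deleted and 3196 and 4887 CPM in Ikbkb-deleted plates, with a log2 fold change of -0.03 for Irf1 (edgeR adjusted p = 1). The cells were chosen by this gene, so its level is a description. Of 17 migration genes tested 8 were higher and 9 lower in Irf1-deleted plates (median difference -0.00102 between the log2 of the group means, against 0.187 for all genes). The summed level of the migration list was 13850 ± 2794 CPM (SD, n = 3) in control, 14020 ± 1450 CPM (n = 4) in Irf1-deleted and 14010 CPM in Ikbkb-deleted plates (n = 2). The NF-κB list summed to 10430 ± 816.1, 10240 ± 575.5 and 10010 CPM, so for both lists the groups differed by less than the spread between plates.

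Ccl5 and Il12b were the 2 genes of the chemokine and cytokine list that were lower in each Irf1-deleted plate than in any control plate. Ccl5 (GRCm38, chr11:83525778-83530518, minus strand) was at 2079, 4372 and 2311 CPM in control and 1113, 802.5, 604.5 and 326.6 CPM in Irf1-deleted plates. The log2 fold change by edgeR was -2.06 ± 0.34 SE, adjusted p = 0.165, and Ikbkb-deleted plates, at 2662 and 1982 CPM, overlapped the control. The transcript was found in 87.5% of 32 control mature cells (75 to 100% by plate) and 50.0% of 42 Irf1-deleted cells (27.27 to 75% by plate), so the plate shares met at 75%. Median levels among cells with a UMI were 2941 and 954.4 CPM.

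Il12b (chr11:44400063-44414033, plus strand) was at 2493, 3397 and 5104 CPM in control and 1217, 2347, 1380 and 1008 CPM in Irf1-deleted plates, and edgeR gave a log2 difference of -1.39 ± 0.37 SE (adjusted p = 0.57). Plate 3 of the Irf1-deleted group came close to the lowest control plate. In Ikbkb-deleted plates it was at 1129 and 2964 CPM, which overlapped the control. The shares of mature cells with Il12b were 78.12% in control and 45.24% in Irf1-deleted plates, with median levels among them of 3275 and 2258 CPM. In the plates left out for holding under 5 mature cells, Il12b was at 340.4 CPM in plate 1 of the Irf1 control and 937.1 CPM in plate 2 of the Irf1-deleted group, so the groups overlapped once these were included. Ccl5 was at 2198 and 0 CPM in the same plates, which left its groups apart. Summed over 24 chemokines and cytokines, control plates were at 8893, 10480 and 10990 CPM and Irf1-deleted plates at 6220, 7477, 3697 and 5541 CPM, with no overlap among the 9 plates. Plate 1 of the Irf1 control, at 3440 CPM, lay below that whole range. Of the 18 tested members 8 were higher and 10 lower, and the means of Ccl5 and Il12b together differed by about as much as the whole sum.

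Other genes were also lower in each Irf1-deleted plate than in any control plate. Txndc17, a thioredoxin-like protein (chr11:72207547-72210015, plus strand), was at 1984, 2085 and 2403 CPM in control, 306.6, 0, 485.8 and 339.2 CPM in Irf1-deleted and 1402 and 1719 CPM in Ikbkb-deleted plates (log2 fold change -2.91 ± 1.01 SE for Irf1, edgeR adjusted p = 0.57). It had a UMI in 96.88% of control, 38.1% of Irf1-deleted and 95.83% of Ikbkb-deleted mature cells. Glipr2 was at 1949, 1866 and 3436 CPM in control and 756.3, 642.9, 936.4 and 789.9 CPM in Irf1-deleted plates (log2 fold change -1.68 ± 0.32 SE, edgeR adjusted p = 0.165). Neither gene's control plates reached down to an Irf1-deleted plate. AW112010, an interferon-induced transcript, was at 1927, 2425 and 2695 CPM in control and 730.6, 1527, 629.5 and 1010 CPM in Irf1-deleted plates (log2 fold change -1.34 ± 0.27 SE, edgeR adjusted p = 0.216). Bcl2l14 was at 820.7, 1199 and 1302 CPM against 266.8, 0, 70.29 and 245.5 CPM (log2 fold change -2.91 ± 1.04 SE, edgeR adjusted p = 0.57). Lactb, a mitochondrial protease-like protein, was at 424.7, 1173 and 639.3 CPM against 213, 121.2, 94.5 and 172 CPM (log2 fold change -2.31 ± 0.49 SE, edgeR adjusted p = 0.285).

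Genes of MHC class I and peptide loading leaned the same way. Of 23 tested 6 were higher and 17 lower with Irf1 deletion (median -0.274), and 6 lay below the control in every plate: H2-K1, H2-Q7, H2-T23, Tapbp, Tapbpl and Psme1. H2-T23, a non-classical class I molecule, was at 928.6, 975.8 and 1323 CPM in control and 553.2, 635.1, 387.4 and 430.1 CPM in Irf1-deleted plates (log2 fold change -1.17 ± 0.31 SE, edgeR adjusted p = 0.57). Psme1, a proteasome activator subunit, was at 1223, 1730 and 1770 CPM against 731.9, 609.3, 1029 and 751.4 CPM (log2 fold change -1.04 ± 0.30 SE, edgeR adjusted p = 0.57). Nlrc5, the transactivator of class I genes, was the 1 member above the control in every plate. The class I list summed to 23400, 26580 and 36390 CPM in control and 23150, 21500, 23300 and 19150 CPM in Irf1-deleted plates, and the highest of the latter came close to the lowest control plate. The Ikbkb-deleted plates, at 26280 and 31110 CPM, lay within the control range. With Ikbkb deletion 13 members were higher and 10 lower (median 0.161). The interferon-gamma and IRF1 target list had 13 of 35 tested members higher and 22 lower with Irf1 deletion (median -0.114), and 25 higher and 10 lower with Ikbkb deletion (median 0.547, against 0.0 for all genes). It summed to 16680, 15330 and 18060 CPM in control, 13560, 15100, 12410 and 11760 CPM in Irf1-deleted and 18870 and 20870 CPM in Ikbkb-deleted plates, so among these 9 plates the deleted groups lay on opposite sides of the control. In the plates with under 5 mature cells, Irf1 control plate 1 was at 19380 CPM, Irf1-deleted plate 2 at 12740 CPM, the Ikbkb control at 15030 CPM and Ikbkb-deleted plates 1 and 2 at 16360 and 17580 CPM, and with them the groups overlapped. None of its genes passed edgeR's test in either comparison, with 5 and 2 at an unadjusted p under 0.05.

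**Figure D4:**
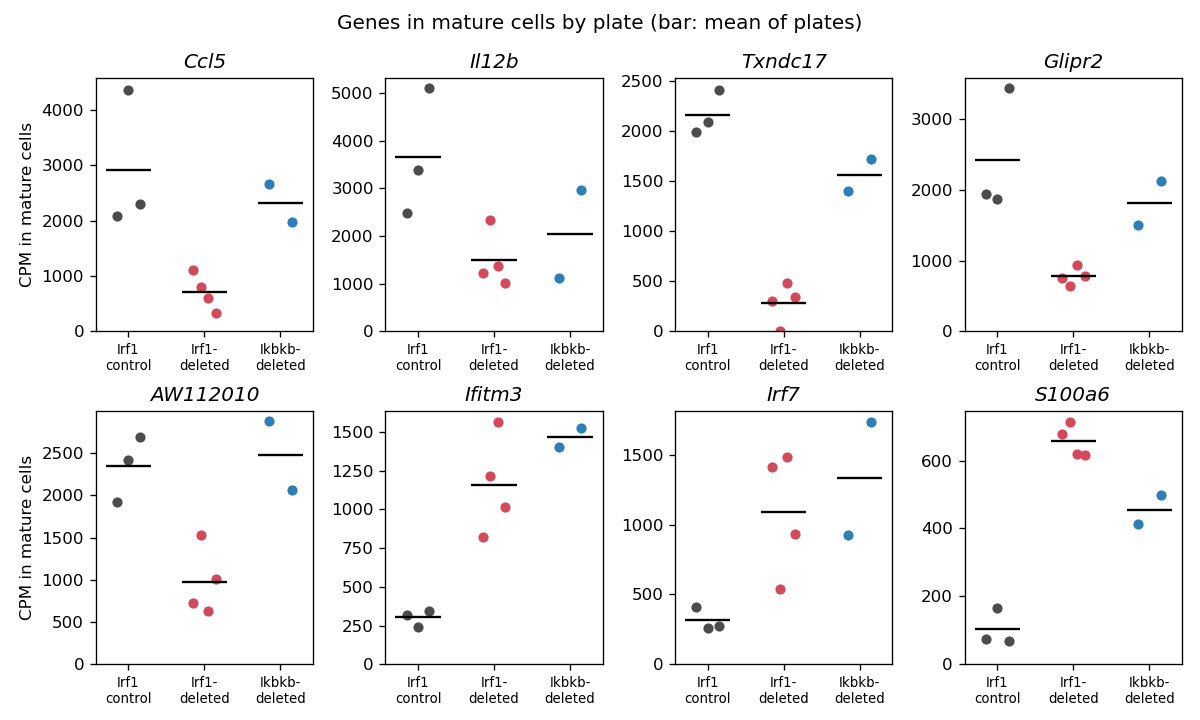
Levels of 8 genes in mature cells (y, CPM, linear axes from 0) for each plate with at least 5 mature cells, by genotype (x), with the mean as a bar. The first 5 genes lie lower in all Irf1-deleted plates than in all control plates, and Ifitm3, Irf7 and S100a6 lie higher in both deleted groups.

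Among the 9 plates, type I interferon-stimulated genes leaned higher in the mature cells of both deletions. With Irf1 deletion 33 of 37 had a positive and 4 a negative fold change (median difference 1.22, against 0.187 for all genes), and 7 lay above the control in every plate: Ifit3, Irf7, Usp18, Ifitm3, Rtp4, Xaf1 and Phf11d. With Ikbkb deletion 36 of 37 were positive (median 1.92, against 0.0 for all genes) and 24 lay above the control in both plates. None of them passed edgeR's test in either comparison, with 12 and 15 at an unadjusted p under 0.05, and both comparisons use the same 3 control plates. Other lists also had medians well above that of all genes with Irf1 deletion: dissociation and heat shock genes at 1.3 (13 of 17 higher, 4 lower), uptake receptors at 1.94 (8 of 10), cDC2 genes at 1.95 (4 of 5) and pattern recognition at 1.01 (8 of 12). With Ikbkb deletion these medians were -0.0372, 1.14, -0.177 and 0.736. The part of dissociation in the interferon-stimulated values was not tested.

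Ifitm3, which blocks the entry of enveloped viruses, was at 317.9, 243.6 and 347.4 CPM in control, 822.4, 1215, 1567 and 1016 CPM in Irf1-deleted and 1406 and 1528 CPM in Ikbkb-deleted plates. The log2 fold changes were 1.89 ± 0.34 SE for Irf1 (edgeR adjusted p = 0.165) and 2.27 ± 0.38 SE for Ikbkb (edgeR adjusted p = 0.119). Irf7, the transcription factor that amplifies type I interferon, was at 413, 260 and 272.8 CPM in control, 1412, 538.1, 1485 and 933.5 CPM in Irf1-deleted and 926.6 and 1735 CPM in Ikbkb-deleted plates, with log2 fold changes of 1.79 ± 0.44 and 2.13 ± 0.50 SE (edgeR adjusted p = 0.518 and 0.586). Neither gene overlapped between control and deleted plates among these 9. The plates with under 5 mature cells did not keep to this. Among cells with a UMI, the median in Irf1 control plate 1 was 3302 CPM for Ifitm3 and 2689 CPM for Irf7. In Irf1-deleted plate 2 it was 20.63 CPM for Irf7, and each gene was absent from an Ikbkb-deleted plate. Ly6e, a surface protein induced by interferon, was at 334.3, 122.2 and 244 CPM in control and 1404 and 1088 CPM in Ikbkb-deleted plates (log2 fold change 2.38 ± 0.57 SE, edgeR adjusted p = 0.586), while Irf1-deleted plates, from 280.8 to 764.4 CPM, overlapped the control. Isg15 overlapped in both comparisons, at 202.8 to 471 CPM in control, 345.7 to 1044 CPM in Irf1-deleted and 386.6 and 1456 CPM in Ikbkb-deleted plates.

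The summed list was at 4500, 3828 and 5139 CPM in the mature cells of control plates, at 10010, 10110, 12720 and 9331 CPM in Irf1-deleted and at 14520 and 18630 CPM in Ikbkb-deleted plates. The groups did not overlap among these 9 plates, but they did once the plates with under 5 mature cells were counted: plate 1 of the Irf1 control was at 14380 CPM, plate 2 of the Irf1-deleted group at 3678 CPM, the Ikbkb control at 3455 CPM, and Ikbkb-deleted plates 1 and 2 at 10010 and 2274 CPM. In the other cells of the same 9 plates the list summed to 15960, 12290 and 12090 CPM in control, 24920, 12060, 17490 and 19230 CPM in Irf1-deleted and 20680 and 22350 CPM in Ikbkb-deleted plates. In each of these 9 plates mature cells thus held less of these transcripts than other cells. Among plates with under 5 mature cells, other cells lay below the mature cells in Irf1 control plate 1 (10940 CPM) and Ikbkb-deleted plate 1 (7749 CPM). They lay above them in Irf1-deleted plate 2 (16700 CPM), the Ikbkb control (9891 CPM) and Ikbkb-deleted plate 2 (9514 CPM). Whether the difference with genotype is larger in mature cells was tested gene by gene, and none of the list passed. Macrophage and monocyte markers in mature cells summed to 14.88 to 512.5 CPM in control, 186.6 to 2240 CPM in Irf1-deleted and 710.4 to 916.4 CPM in Ikbkb-deleted plates. Plasmacytoid cell markers summed to 193.4 to 430.5, 221.8 to 656 and 505.8 to 671.4 CPM. Fibroblast or endothelial markers summed to 3.721 to 10.66, 23.46 to 127.4 and 0 CPM. The 8 cDC1 markers summed to 2300 to 2639, 772.4 to 1949 and 1096 to 1631 CPM, with no overlap between control and either deleted group among these plates. With the plates under 5 mature cells the groups overlapped. Irf1 control plate 1 was at 1620 CPM, Irf1-deleted plate 2 at 636.5 CPM and the Ikbkb control at 1633 CPM. Ikbkb-deleted plates 1 and 2 were at 1998 and 1996 CPM. Over the same 9 plates T cell markers summed to 0 to 11.72 (control), 0 to 98.59 (Irf1-deleted) and 79.21 to 160 CPM (Ikbkb-deleted). In plates with under 5 mature cells they were at 748.4 CPM in Irf1-deleted plate 2, 160.2 CPM in the Ikbkb control and 0 CPM elsewhere. The part of these markers in the interferon-stimulated values was not tested.

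**Figure D5:**
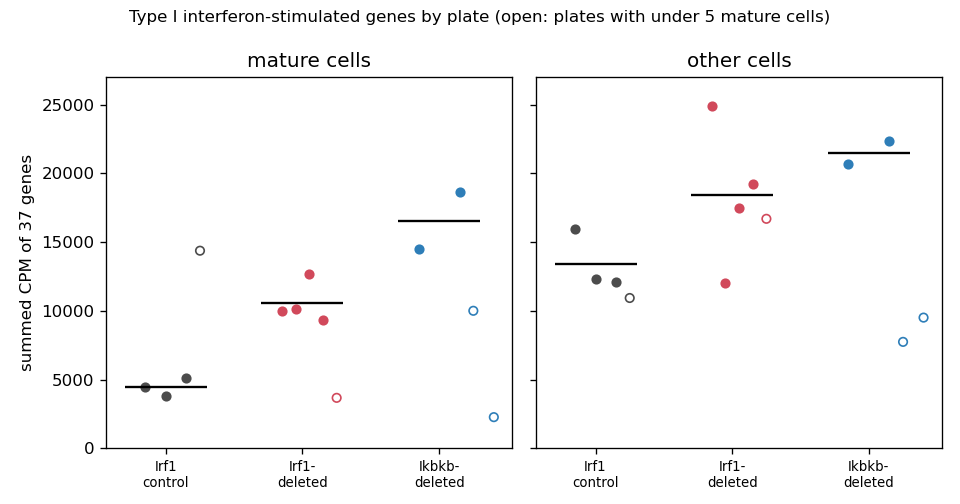
Summed level of 37 type I interferon-stimulated genes (y, CPM) in mature cells (left) and other cells (right) of each plate, by genotype (x), with bars at the mean of filled points. Filled points of the mature cells do not overlap between control and deleted plates, but open points, plates with under 5 mature cells, fall across the ranges.

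The promoters of this list were searched for the IRF element GAAANNGAAA on both strands. It occurred in 2.98% of all promoters of the table and in 3.57% of genes with a UMI and a promoter, but in 14 of 27 (51.9%) of the type I interferon-stimulated genes and in 12 of 29 (41.4%) of the interferon-gamma and IRF1 target list. Such lists are built from genes of this kind, so the share describes the list. The shorter form GAAANNGA, contained in each match, occurred in 18.1% of promoters. Genes called higher in mature cells held the longer element in 7 of 177 cases (3.95%), and those called lower in 28 of 423 (6.62%). Isg15 (chr4:156200819-156201068, minus strand) and Ifit3 (chr19:34583279-34583528, plus strand) are shown for their several matches, in capitals: 3 that overlap one another from base -78 to -57 in Isg15, and 2 on the reverse strand, at -156 to -147 and -122 to -113, in Ifit3. The promoter of Il12b (chr11:44399813-44400062, plus strand) is shown beside them, since Il12b lay lower in Irf1-deleted plates. Neither GAAANNGAAA nor GGGNNTTTCC occurs in this window. Sites with other letters can still be present, and a link to the genotype difference was not tested.
Isg15: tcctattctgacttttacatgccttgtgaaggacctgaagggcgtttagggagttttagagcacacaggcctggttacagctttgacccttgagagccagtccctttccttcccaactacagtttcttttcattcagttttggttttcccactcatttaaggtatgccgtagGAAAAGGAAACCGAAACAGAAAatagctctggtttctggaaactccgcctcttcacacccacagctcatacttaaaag
Ifit3: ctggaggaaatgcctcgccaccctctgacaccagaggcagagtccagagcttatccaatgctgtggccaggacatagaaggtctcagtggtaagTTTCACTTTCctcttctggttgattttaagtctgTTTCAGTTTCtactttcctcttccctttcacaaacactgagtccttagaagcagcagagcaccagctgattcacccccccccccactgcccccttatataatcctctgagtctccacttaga
Il12b: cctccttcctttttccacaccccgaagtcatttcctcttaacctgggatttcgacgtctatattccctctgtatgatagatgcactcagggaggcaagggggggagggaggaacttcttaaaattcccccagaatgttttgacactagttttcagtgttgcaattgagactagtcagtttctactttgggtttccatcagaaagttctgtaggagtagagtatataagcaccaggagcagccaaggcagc

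Several genes outside the interferon lists also stood higher in Irf1-deleted mature cells. S100a6, a calcium-binding protein, was at 75.48, 166.8 and 70.33 CPM in control, 678, 712.5, 620.1 and 615.5 CPM in Irf1-deleted and 414.3 and 497.4 CPM in Ikbkb-deleted plates (log2 fold change 2.65 ± 0.51 SE for Irf1, edgeR adjusted p = 0.165). It had a UMI in 31.25% of control and 85.71% of Irf1-deleted mature cells. Flrt3, an adhesion protein, was at 393.3, 373.6 and 330.3 CPM against 967.5, 1300, 1306 and 787.1 CPM (log2 fold change 1.54 ± 0.35 SE, edgeR adjusted p = 0.43). Gngt2, a G protein subunit, was at 115.3, 0 and 85.24 CPM in control, 317.6 to 689.6 CPM in Irf1-deleted and 1232 and 909.8 CPM in Ikbkb-deleted plates (edgeR adjusted p = 0.57 for Irf1). In each of the 3 genes the groups did not overlap.

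2 genes had few or no UMIs in the control mature cells of these plates. Il1r2, the decoy receptor of interleukin 1, had no UMI in the 32 control cells. It was at 150.5, 429.4, 118.7 and 655.2 CPM in Irf1-deleted plates (edgeR adjusted p = 0.165). Counts above 0 had a median of 64 in these data, so absence from 32 cells sets no bound on the fold change. The transcript came from 8 of 42 Irf1-deleted cells. Spic, a transcription factor of red pulp macrophages, was at 0.5315, 0 and 0 CPM in control and 25.09, 401.2, 729.5 and 267 CPM in Irf1-deleted plates, from 15 of 42 cells (edgeR adjusted p = 0.193).

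NF-κB genes in Ikbkb-deleted mature cells showed no common direction: 16 of 27 had a positive and 11 a negative fold change (median 0.167). In both Ikbkb-deleted plates 4 of the 27 lay above every control plate and 3 below. Of all 7311 genes 671 (9.18%) lay above and 421 (5.76%) below. Nfkbia was at 2467, 2788 and 3085 CPM in control and 1174 and 1758 CPM in Ikbkb-deleted plates (log2 fold change -0.90 ± 0.28 SE, edgeR adjusted p = 0.615). Tnfaip3, which encodes the feedback enzyme A20, was at 233.3, 182.5 and 556.2 CPM against 42.12 and 2.997 CPM (edgeR adjusted p = 0.615). Tnfsf9, which encodes the ligand of 4-1BB, was at 772.3, 1136 and 396.4 CPM against 251.5 and 250.5 CPM (log2 fold change -1.58 ± 0.69 SE, edgeR adjusted p = 0.615). For these 3 genes both Ikbkb-deleted plates lay below every control plate. Map3k14 lay the other way, at 94.61, 296 and 10.66 CPM in control and 300.5 and 365.6 CPM in Ikbkb-deleted plates, and also above the control in all Irf1-deleted plates, from 331.1 to 557.6 CPM. Irf8 lay below the control in both deletions, at 1268, 1928 and 1614 CPM in control, 1052, 1109, 277.3 and 957.5 CPM in Irf1-deleted and 728 and 908 CPM in Ikbkb-deleted plates (log2 fold changes -0.96 ± 0.39 and -0.95 ± 0.48 SE, edgeR adjusted p = 0.57 and 0.615).

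Whether the Irf1 difference itself differed between mature and other cells was tested as an interaction over 12287 genes. edgeR called 1 gene (0.00814%) higher and 0 lower, with 218 at an unadjusted p under 0.05, and DESeq2 called 155. Among the genes that did not pass in edgeR were Ccl5, Il12b, Ifitm3 and Irf7, so a difference particular to mature cells was not shown for them.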

How the data were processed

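Single cells were sorted into plates with spike-in RNA, and the 5′ end of each transcript was tagged with a UMI of 5 bases, per the labels' protocols. The deposited table holds the authors' UMI counts of 21205 genes in 555 cells, and a cell's counts summed to the authors' deposited total in all 555. The largest count was 1024, as many as 5 bases allow, so high counts are understated. Counts above 0 had a median of 64, and whether each UMI stands for 1 transcript was not tested. The submitters' processing notes give build GRCm38 and the tools HTSeq 0.9.1, STAR 2.5.3a and bcl2fastq. Stainings and scatter are scores in the deposited cell annotation, and mitochondrial and spike-in shares are fractions as the authors deposited them. The sources used here state neither compensation nor earlier cell filters. Cells were sorted singly, and no doublet caller was run.

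Counts were summed over the mature and the other cells of each plate. The labels separate plates of a group by mouse and, in the Ikbkb-deleted group, also by age, and replicate numbers follow accession order. Genotypes were compared with edgeR 4.0.16 in R 4.3.3 in 1 fit of 9 plates (filterByExpr, TMM, quasi-likelihood, two-sided, Benjamini-Hochberg threshold 0.05). DESeq2 1.42.0 and limma 3.58.1 served as alternatives. The fits were also run on simulated counts with 1 fixed spread for all genes and plates. That run cannot show how the fits behave where the spread is uneven. Stainings were transformed by arcsinh and compared by plate medians. Symbols matched the gene name table in 21042 cases, and positions come from GENCODE M21.

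The members, gene lists and tests were chosen with earlier results of these data known. Named genes were Irf1, Ikbkb, the 10 markers, the 12 largest differences each way within plates at 100 CPM or more, up to 4 members of each list, up to 3 per list between genotypes by p, and 9 genes of an earlier analysis. Cd80, Cd86, Cd274, Ccl17, Nfkb2, Nfkbia within plates, Itgae, Irf8, Batf3, Ciita and H2-Aa within plates, and Ifit3, Isg15, Lactb, S100a6, Flrt3 and the class I and interferon genes listed without values between genotypes, were chosen after their values were seen.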

Additional observations from a re-analysis of the deposited data

Results flagged for a closer look

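1 gene, BC028528, was past the threshold in the test of whether the Irf1 difference differed between mature and other cells, with a fitted interaction of 7.681 on the log2 scale (edgeR adjusted p = 0.00539). In mature cells it was at 0, 0.7832 and 0 CPM in the 3 control plates, at 52.01, 55.53, 35.15 and 123.7 CPM in Irf1-deleted plates and at 180.4 and 47.95 CPM in Ikbkb-deleted plates. In other cells it was at 684.4 CPM in control, 750.5 CPM in Irf1-deleted and 740.6 CPM in Ikbkb-deleted plates. The fitted value rests on control plates at or near 0, so its size is no bound, and the call was lost in 6 of 17 alternatives. No plate was flagged in the 23 sets of values searched for outliers. These were shares of mature cells by group, levels of single genes in Irf1-deleted plates, and XCR1 and MHCII staining. Gene levels in control plates, summed lists and levels in plates with under 5 mature cells were not searched. Irf1 control plate 1, at 4.651% mature cells, was not flagged, so the search does not show that plates are alike.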

How the results depend on the processing

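No paired analysis was possible because the labels carry no replicate numbers, and the numbers used here follow accession order. The difference in the share of mature cells, -0.7318 percentage points, became positive without Irf1 control plate 2 (1.376), 3 (1.886) or 4 (0.05233) or Irf1-deleted plate 2 (1.677). It ran from -6.241 to 1.886 over plates left out, with exact permutation p values from 0.107 to 0.964. Within plates the lower calls numbered 353 at a pseudocount of 50. With at least 4 markers there were 148 higher and 285 lower calls, and with each plate left out in turn 247 to 268 higher and 558 to 690 lower. The comparisons with cDC1-marked cells, each plate left out within plates, and mature cells with at least 500 genes were added after seeing the data.

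MHCII staining passed at 4 markers (1.319, exact permutation adjusted p = 0.043, range over alternatives 0.043 to 0.258). Small staining differences changed sign: CD45 (-0.04151) and B_TIL (0.03549) at 4 markers, FSC (0.04948) and B_TIL (0.02435) at 6, and LIN (0.5794), CD11b (0.4547) and B_TIL (0.03914) with plate means.

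Calls with Irf1 deletion numbered 15 by DESeq2, 19 with no filter, 17 with at least 10 and 6 with at least 3 mature cells a plate, 11 by limma-trend, and 0 to 9 with a plate left out: 1 without Irf1-deleted plate 1 or 3, 9 without Ikbkb-deleted plate 3 and 7 without plate 4. Ccl5 and Glipr2 passed in 6 of 19 alternatives, Il12b, Txndc17 and AW112010 in 5, and Ifitm3 and Irf7 in 3, none changing direction. The adjusted p of Ccl5 ran from 1.09e-11 to 1. With Ikbkb deletion there were 177 calls by DESeq2, 11 with no filter, 12 with at least 10 and 9 with at least 3 cells a plate, and 0 to 9 with a plate left out (5 without Ikbkb-deleted plate 3 and 9 without plate 4). In these and with at least 10 cells a plate 1 Ikbkb-deleted plate remains, assumed to vary like the other groups. Irf1 changed sign there with at least 3 cells a plate (0.305). The interaction gave 155 calls by DESeq2, 2 with upper-quartile factors, 17 with no filter, 0 with at least 3 cells a plate, with 4 or 6 markers or with Irf1 plates alone, and 0 to 38 with a plate left out. The cause of these changes was not tested. With 2 to 4 plates a group and 7 to 15 mature cells a plate, differences missing the threshold are not shown to be absent.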
